A study of Homo sapiens with 9 samples.

Results

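The genes PDCD1, LAG3, TIGIT, HAVCR2, TOX and TOX2 were examined in a FAIRE-seq experiment on Jurkat cells, an established human T cell leukaemia line (Clone E6-1). FAIRE-seq recovers DNA that is not held by nucleosomes after formaldehyde fixation and sequences it, so that a peak marks open chromatin. Peaks of 4 deposited lists that overlapped or touched were joined, which gave 40703 merged regions once unplaced contigs and mitochondrial DNA were set aside, and a merged region was taken for a gene where any base lay in its body or within 50 kb of its transcription start site (TSS). The rule gave 47 regions in all, 16 at TOX, 11 at TOX2, 8 at HAVCR2, 6 at LAG3, 5 at PDCD1 and 1 at TIGIT, and no region was taken for more than 1 of the 6 genes.

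The series had 9 samples. These were non-stimulated cells (NS), cells given PMA and ionomycin for 4 h (ST), cells from which the stimulus was washed away before a further 1 day of culture (SW) and SW cells stimulated again for 2 h (RS), each after DMSO or after 15 µM of the PKC inhibitor rottlerin for 1 h, together with total input DNA. The stimulation time is that of the labels, and the study's methods give a shorter one. The labels attached the 4 lists to NS DMSO, SW DMSO, NS rottlerin and SW rottlerin, and 5 samples have no list and were not analysed here. Each list came from 1 library, so no value below has a replicate error and no test between lists was made. The study's methods describe peak calling on the DMSO samples of the 4 states, which differs from these labels. The merged regions of the deposited lists, counted on all contigs, were also as many as the methods count over peaks pooled from those DMSO samples, so the lists with rottlerin in their label may hold DMSO samples of other states. For this reason each list is named by its label and no change between states, and no effect of rottlerin, is read from any list.

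PD-1 (PDCD1), LAG-3, TIGIT and TIM-3 (HAVCR2) are inhibitory receptors that T cells place on their surface after activation and that damp signalling from the antigen receptor. TOX and TOX2 are related HMG-box proteins that bind DNA, and TOX is known as a regulator of the exhausted state that T cells enter under lasting antigen exposure, in which these receptors are held at high levels. In activated T cells, calcium signalling and PKC act on NFAT, AP1 and NFκB factors, whose binding sites are common in the distal elements of such genes.

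The lists held 18977 (NS DMSO), 20132 (SW DMSO), 23835 (NS rottlerin) and 30409 (SW rottlerin) peaks, and read depth is unknown from them. Fold enrichment is the ratio of the FAIRE signal to the total input as written by the peak caller; its median over all peaks lay between 4.03 and 4.08 in the 4 lists. Of 12 T lineage marker genes, 10 had a region within 1 kb of the TSS, CD3D, CD3E, CD28 and BCL11B among them with a peak in all 4 lists, whereas none of 12 marker genes of other lineages had one. CD2 and CD7 were the T lineage genes without such a region.

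Sequence is shown for the region with the highest fold enrichment among those without a peak in the list labelled NS DMSO at PDCD1, LAG3, TIGIT and TOX2. Regions are numbered within each gene from upstream to downstream. The letters are the plus strand of GRCh37 at the centre of each region, 5′ to 3′, without annotated UTR bases. Capitals mark the matches to the short consensus strings that are spelled out with the motif counts. At TIGIT, leaving out 111 UTR bases left the start of the region, short of its centre. The bHLH match (CAGCTG) counted for TIGIT region 1 in its central 300 bp lies outside the printed bases.
PDCD1 region 4, chr2:242801984-242802283: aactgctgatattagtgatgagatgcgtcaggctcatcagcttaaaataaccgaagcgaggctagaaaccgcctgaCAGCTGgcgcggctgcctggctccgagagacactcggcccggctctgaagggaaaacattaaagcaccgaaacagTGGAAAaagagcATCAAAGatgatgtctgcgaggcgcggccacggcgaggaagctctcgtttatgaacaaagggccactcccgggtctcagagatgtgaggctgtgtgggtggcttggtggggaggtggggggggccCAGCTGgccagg
LAG3 region 5, chr12:6901214-6901513: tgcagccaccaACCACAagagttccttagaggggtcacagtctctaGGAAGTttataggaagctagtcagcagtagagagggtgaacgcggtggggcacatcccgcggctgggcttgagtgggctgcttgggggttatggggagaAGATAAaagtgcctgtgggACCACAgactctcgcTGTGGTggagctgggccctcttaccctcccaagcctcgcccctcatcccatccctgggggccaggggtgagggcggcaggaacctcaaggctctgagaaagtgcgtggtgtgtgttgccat
TIGIT region 1, chr3:114009837-114009905: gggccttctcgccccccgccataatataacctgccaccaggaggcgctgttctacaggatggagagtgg
TOX2 region 8, chr20:42639593-42639892: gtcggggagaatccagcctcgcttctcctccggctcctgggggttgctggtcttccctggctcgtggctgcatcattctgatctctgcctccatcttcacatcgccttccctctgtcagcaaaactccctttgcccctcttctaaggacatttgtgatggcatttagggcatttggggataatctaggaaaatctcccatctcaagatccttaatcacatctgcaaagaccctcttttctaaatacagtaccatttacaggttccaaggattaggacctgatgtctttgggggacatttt

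Across the 6 genes, 28 of the 47 regions (59.6%; 95% Wilson interval 45.3 to 72.4%) had no peak in the list labelled NS DMSO, beside 53.5% of all merged regions. A peak in all 4 lists was found at 11 regions (23.4%; 13.6 to 37.2%), beside 26.6% of all. Both background shares lay inside the intervals. The intervals cover counting error alone and treat regions as independent, which regions of 1 gene are not.

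The list labelled SW rottlerin, the longest, held a peak at 41 of the 47 regions (87.2%; 74.8 to 94.0%), beside 74.5% of all merged regions. NS rottlerin peaks were at 28 regions (59.6%) beside 58.4% of all, SW DMSO peaks at 23 (48.9%) beside 49.3%, and NS DMSO peaks at 19 (40.4%) beside 46.5%. The SW rottlerin list alone gave 11 regions (23.4%), 7 at TOX, 3 at HAVCR2 and 1 at LAG3, beside 18.2% of all. Without that list, 17 of 36 regions (47.2%) lacked an NS DMSO peak, beside 43.3% of all merged regions rebuilt the same way. With the 18977 highest-scoring peaks taken from each list, this was 16 of 35 (45.7%) beside 41.5%.

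The pattern with a peak in every list but NS DMSO was seen at 6 regions (12.8%; 5.98 to 25.2%), 4 of them at TOX2 and 2 at HAVCR2, beside 7.08% of all. A peak in NS DMSO alone was seen at 3 regions (6.38%), 1 each at PDCD1, LAG3 and TOX, beside 7.83% of all. At TOX, 7 of the 8 regions without an NS DMSO peak were in a single list, and at TOX2, 7 of the 8 were in at least 2 lists. Over all merged regions, 12607 of the 21783 without an NS DMSO peak were in a single list, and at the 6 genes together 13 of the 28 were.

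**Figure D1:**
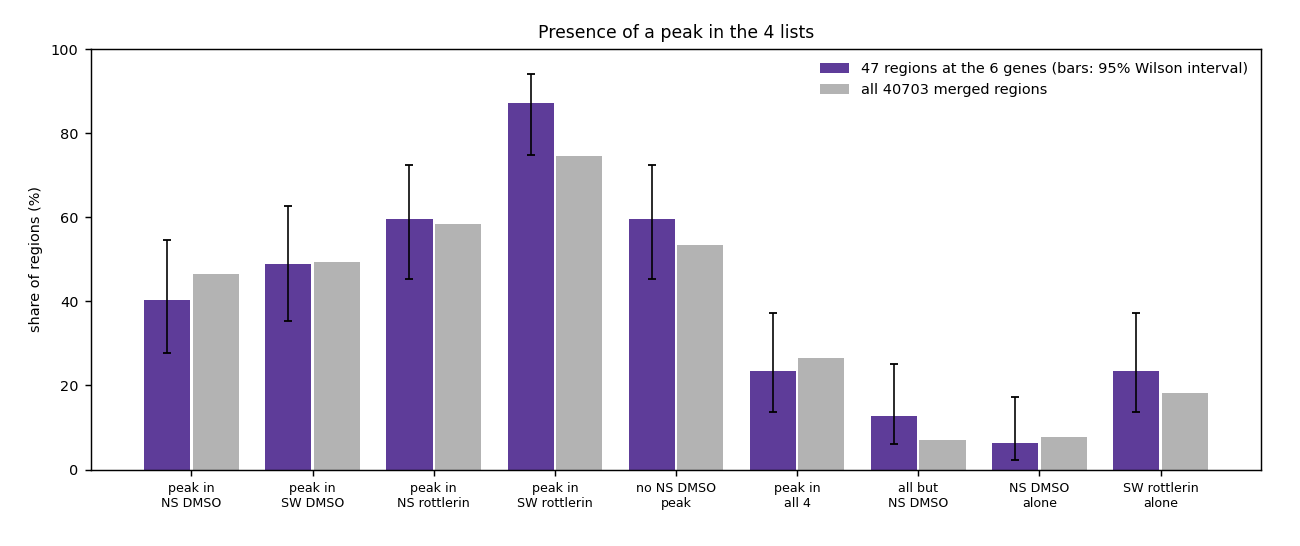
Share of regions (%, y axis) with each presence pattern (x axis) for the 47 regions at the 6 genes (purple, error bars 95% Wilson intervals) and for all 40703 merged regions (grey). The SW rottlerin bar is 87.2% at the genes and 74.5% over all regions, and every interval but that one spans the grey bar.

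By density, the 6 windows together held 4.82 regions per 100 kb (exact Poisson interval 3.54 to 6.40, counting error alone) over 975.952 kb, and the median of 20163 protein-coding genes searched in the same way was 2.12. HAVCR2 had 7.45 regions per 100 kb, above 95.5% of coding genes. LAG3 (6.0), TOX2 (5.37), PDCD1 (5.00) and TOX (4.40) followed, above 87.5%, 86.9%, 79.8% and 78.5% of coding genes. TIGIT, with 1.00, was above 21.7% of them. In number of regions, TOX exceeded 99.4% and TOX2 97.6% of coding genes, both having long windows (363.736 and 204.765 kb).

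**Figure D2:**
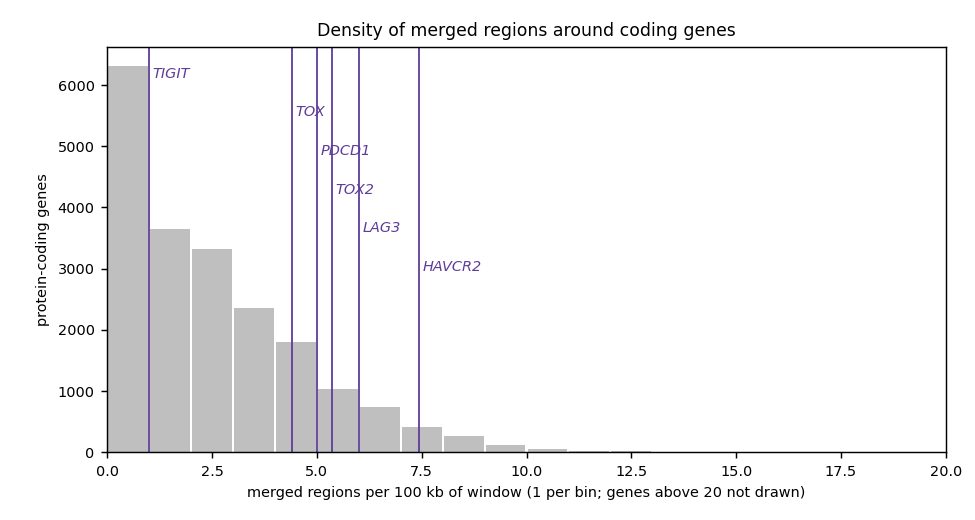
Number of protein-coding genes (y axis) by merged regions per 100 kb of window (x axis, bins of 1), with the 6 genes as vertical lines. TIGIT lies at 1.00 and the other 5 genes lie between 4.40 (TOX) and 7.45 (HAVCR2), above the median of 2.12.

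In place, 27 of the 47 regions lay over the body of the gene they were taken for, 13 at TOX, 11 at TOX2, 2 at HAVCR2 and 1 at TIGIT. Of the other 20, 11 lay over a different protein-coding gene, and 7 of the 47 had their mid-point within 1 kb of the TSS of another gene and not of their own. Introns held 35 regions (74.5%, beside 55.8% of all merged regions), and exons outside UTRs held none (6.93% of all). The windows differed in what bounded them: the next merged region lay 0.690 kb beyond the window at TOX2, 0.995 kb at HAVCR2, 2.656 kb at TOX and 12.947 to 28.744 kb at TIGIT, PDCD1 and LAG3, while the farthest region taken outside a gene body was LAG3 region 1 at 48.4 kb.

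**Figure D3:**
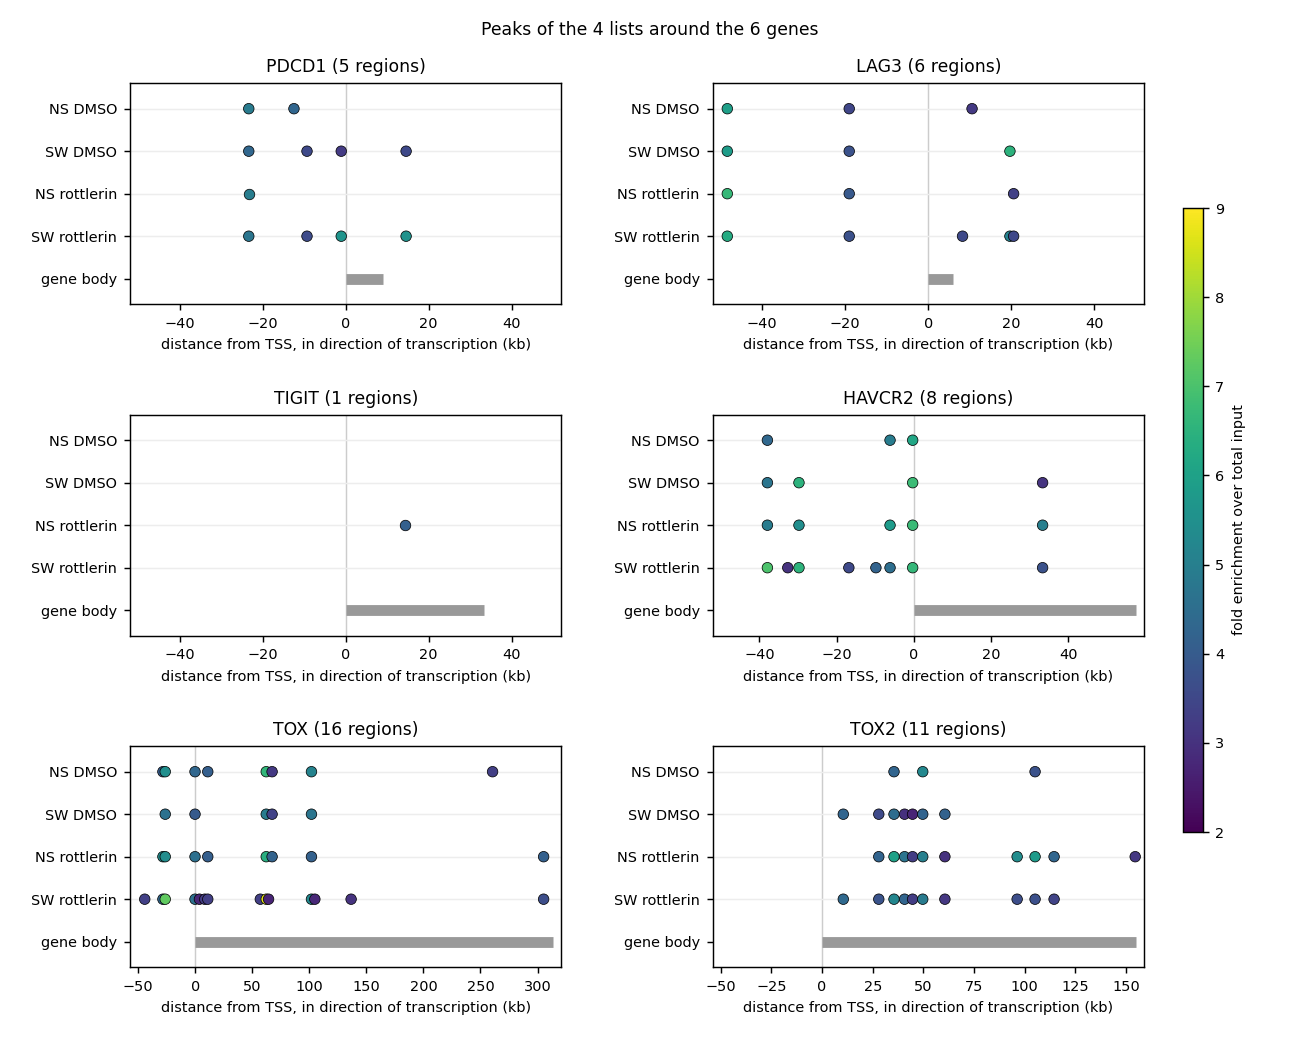
Peaks of the 4 lists (rows) around each gene by distance of the region's mid-point from the TSS (x axis, kb, positive in the direction of transcription), coloured by fold enrichment, with the gene body as a grey bar. No peak lies over the bodies of PDCD1 and LAG3, 1 lies in TIGIT, and peaks lie along TOX and TOX2, where the TOX2 start has none.

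PDCD1 (ENSG00000188389, chr2:242792036-242801046, minus strand) encodes PD-1, the receptor for PD-L1 and PD-L2. Region 4 (chr2:242801946-242802320), with its mid-point 1.09 kb upstream of the TSS, had a fold enrichment of 3.22 in SW DMSO and 5.62 in SW rottlerin and no peak in NS DMSO or NS rottlerin. The nearest NS DMSO peak was 11.1 kb away. Region 5 (chr2:242786350-242786649), 14.5 kb downstream of the TSS beyond the end of the gene and 33 bp from the TSS of ENSG00000235151, had the same pattern, with 3.55 and 5.57. Both regions were in the 2 lists labelled SW and in neither labelled NS.

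Region 3 (chr2:242810277-242810492, 9.34 kb upstream) was also in the 2 SW lists, with 3.53 in SW DMSO and 3.61 in SW rottlerin. The nearest NS DMSO peak lay 2.92 kb from it, at region 2 (chr2:242813411-242813643, an intron of RTP5), which was in NS DMSO alone with 4.29. Region 1 (chr2:242823359-242825479, 23.4 kb upstream, 157 bp from the TSS of LINC01237) was in all 4 lists, with 4.89 in NS DMSO, 4.32 in SW DMSO, 4.95 in NS rottlerin and 4.72 in SW rottlerin. So 3 of the 5 PDCD1 regions (60%, beside 53.5% of all merged regions) had no NS DMSO peak, and these 3 were in both SW lists and in no other. Regions in any 2 lists but not in NS DMSO made up 19.1% of the 47 and 15.5% of all merged regions. The share of all regions in the 2 SW lists alone is not given here, so the PDCD1 count stands without that background.

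LAG3 (ENSG00000089692, chr12:6881678-6887621, plus strand) encodes a receptor related to CD4 that binds MHC class II, and it lies beside CD4. No region overlapped its body or lay within 1 kb of any of its annotated starts. Of its 6 regions, 3 (50.0%, beside 53.5% of all merged regions) had no NS DMSO peak. Region 5 (chr12:6901158-6901569, 19.7 kb downstream of the TSS, in a CD4 intron) had 6.49 in SW DMSO and 5.10 in SW rottlerin and no peak in the 2 NS lists, the nearest NS DMSO peak being 8.84 kb away. Region 6 (chr12:6902140-6902361), also in a CD4 intron, had 3.35 in NS rottlerin and 3.51 in SW rottlerin.

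The 2 LAG3 regions in all 4 lists were at the starts of other genes. Region 1 (chr12:6832997-6833496), over the 5′UTR of COPS7A, had 5.92 in NS DMSO, 5.84 in SW DMSO, 6.69 in NS rottlerin and 6.29 in SW rottlerin. Region 2 (chr12:6862271-6862989), 323 bp from the TSS of MLF2, had 3.48, 3.77, 3.93 and 3.73 in the same order. NS DMSO gave the lowest value at region 2 and SW DMSO the lowest at region 1. Region 3 (chr12:6889814-6890065) was in SW rottlerin alone with 3.54, and region 4 (chr12:6892151-6892317) in NS DMSO alone with 3.17.

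TIGIT (ENSG00000181847, chr3:113995760-114029135, plus strand) encodes a receptor for the poliovirus receptor family. Its window held 1 region (chr3:114009837-114010016), in NS rottlerin alone, with a fold enrichment of 4.11. It lay 14.2 kb downstream of the TSS, over the 5′UTR of 2 transcripts whose starts are at 114009906 and 114009949, and the nearest NS DMSO peak was 209 kb away. The TIGIT locus thus had no peak in 3 of the 4 lists.

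HAVCR2 (ENSG00000135077, chr5:156512433-156569880, minus strand) encodes TIM-3. Its annotated starts spread over a long stretch, and 7 of its 12 transcripts start within region 8 (chr5:156536007-156537079, 33.3 kb downstream of the most upstream start). Region 8 had a fold enrichment of 3.06 in SW DMSO, 5.00 in NS rottlerin and 3.76 in SW rottlerin and no peak in NS DMSO, where the nearest peak was 32.7 kb away. These 3 values were above 8.29%, 78.0% and 38.4% of the peaks of their lists, so the SW DMSO peak was among the weaker ones. By contrast, region 7, 313 bp from the most upstream start, was in all 4 lists, with 6.14 in NS DMSO, 6.78 in SW DMSO, 6.75 in NS rottlerin and 6.67 in SW rottlerin. So the region at the outer HAVCR2 start was in every list, and the region at the inner starts was in every list but NS DMSO.

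Of the 8 HAVCR2 regions, 5 (62.5%; Wilson interval 30.6 to 86.3%) had no NS DMSO peak, beside 53.5% of all merged regions. Upstream of the gene body and over other genes lay 6 of the 8, so nearness alone ties these to HAVCR2. Without the SW rottlerin list, and also with equal numbers of peaks, 2 of 5 HAVCR2 regions lacked an NS DMSO peak. Among these 6, regions 2, 4 and 5 were in SW rottlerin alone, with 3.00 to 4.19 and scores of 26 to 34, where the score is 10 times −log10 of the q-value without decimals. The other HAVCR2 region with a peak in every list but NS DMSO was also among the 6.

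**Figure D4:**
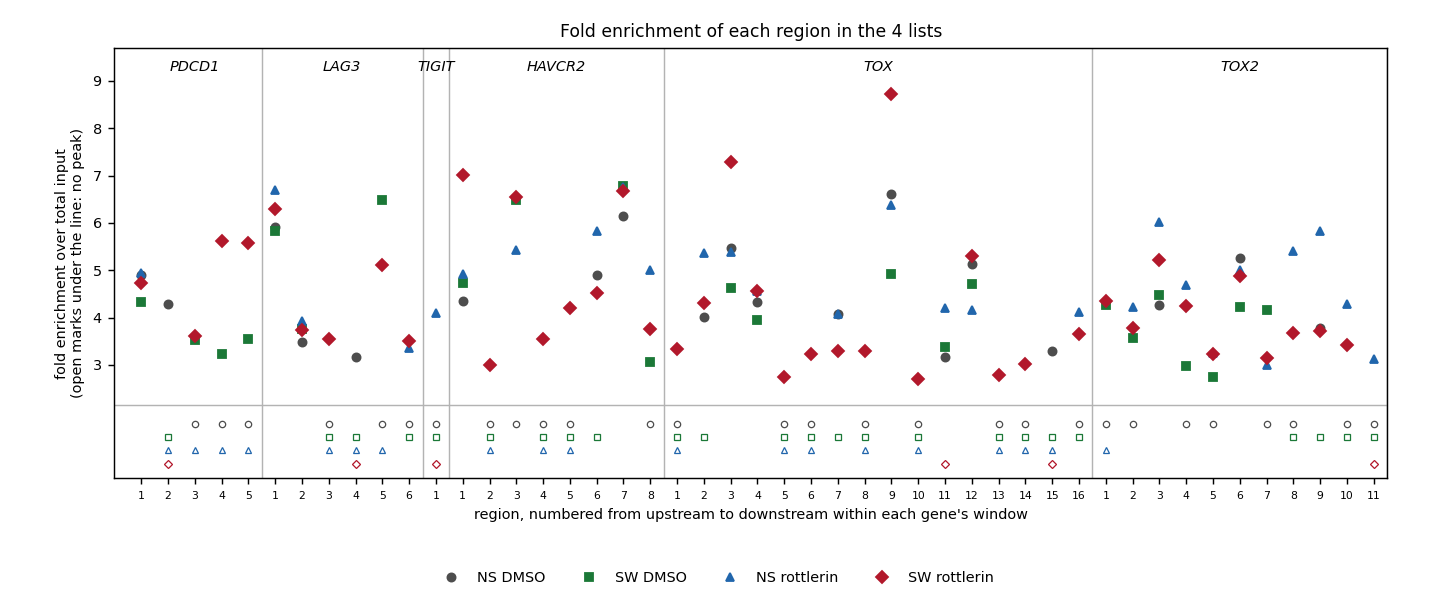
Fold enrichment over total input (y axis) of each of the 47 regions (x axis, numbered within each gene) in the 4 lists (NS DMSO circles, SW DMSO squares, NS rottlerin triangles, SW rottlerin diamonds). Filled marks are peaks, and open marks under the line show a list with no peak there. TOX region 9 holds the highest value, 8.73 in SW rottlerin.

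TOX (ENSG00000198846, chr8:59717971-60031706, minus strand) had 16 regions, with peaks at 8 in NS DMSO, 5 in SW DMSO, 8 in NS rottlerin and 14 in SW rottlerin. Region 4 (chr8:60031531-60032428), 273 bp from the single annotated start, was in all 4 lists, with 4.32 in NS DMSO, 3.95 in SW DMSO, 4.56 in NS rottlerin and 4.55 in SW rottlerin. The strongest region of all 47 was region 9 (chr8:59969100-59969991, in an intron 62.2 kb downstream of the TSS), with 6.61 in NS DMSO, 4.92 in SW DMSO, 6.38 in NS rottlerin and 8.73 in SW rottlerin. Its SW rottlerin value was above 99.7% of the peaks of that list, and its values spread more widely than those at the start.

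Region 3 (chr8:60057898-60058299, 26.4 kb upstream) was likewise in all 4 lists, with 5.47 in NS DMSO, 4.62 in SW DMSO, 5.39 in NS rottlerin and 7.30 in SW rottlerin. Region 12 (chr8:59929172-59930604, 102 kb downstream) had 5.14, 4.71, 4.15 and 5.29 in the same order. In regions 3, 9 and 12, SW rottlerin gave the highest of the 4 values. Region 15 (chr8:59771032-59771200), 261 kb downstream, was in NS DMSO alone with 3.29.

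At TOX, 8 of the 16 regions (50.0%, beside 53.5% of all merged regions) had no NS DMSO peak. Of these 8, 7 were in SW rottlerin alone, with a median fold enrichment of 3.02 (2.70 to 3.33) and scores of 11 to 36. The lists held 163 to 427 peaks each with a q-value above 0.05, and with peaks of a q-value of 0.05 or less TOX had 14 regions, 6 of them without an NS DMSO peak. The study's methods name that same limit, which the lists thus exceed. The eighth region was in both rottlerin lists. Without the SW rottlerin list, TOX had 9 regions and 1 of them lacked an NS DMSO peak, and the same 9 and 1 were counted when each list was held to the same number of peaks. The count of 8 therefore rested on the longest list.

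TOX2 (ENSG00000124191, chr20:42543492-42698256, plus strand) had 11 regions, all within the gene body, with peaks at 3 in NS DMSO, 7 in SW DMSO, 10 in NS rottlerin and 10 in SW rottlerin. No NS DMSO peak was found at 8 of the 11 (72.7%; Wilson interval 43.4 to 90.3%), beside 53.5% of all merged regions, which lies inside that interval. Among the 5795 coding genes with at least 5 regions, 88.3% had a lower share, and their median was 42.9%. The count at TOX2 was 8 of 11 without the SW rottlerin list, beside 43.3% of all merged regions rebuilt the same way. With equal numbers of peaks it was 7 of 10, beside 41.5%. No region lay within 1 kb of any of the 6 annotated TOX2 starts.

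The 4 TOX2 regions in every list but NS DMSO were spread over the first part of the gene. Region 2 (chr20:42571348-42571568, 28.0 kb from the TSS) had 3.56 in SW DMSO, 4.22 in NS rottlerin and 3.78 in SW rottlerin. Region 4 (chr20:42583989-42584378, 40.7 kb) had 2.98, 4.69 and 4.25 in that order. NS rottlerin gave the highest value at both.
Region 5 (chr20:42587863-42588399, 44.6 kb) had 2.73 in SW DMSO, 3.25 in NS rottlerin and 3.24 in SW rottlerin. Region 7 (chr20:42603926-42604248, 60.6 kb) differed from these 3 in order, with 4.16 in SW DMSO, 3.00 in NS rottlerin and 3.14 in SW rottlerin. The SW DMSO values of regions 2, 4, 5 and 7 were above 28.4%, 6.15%, 1.69% and 55.6% of the peaks of that list.

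Between them lay the 2 TOX2 regions in all 4 lists. Region 3 (chr20:42578798-42579135, 35.5 kb from the TSS) had 4.27 in NS DMSO, 4.48 in SW DMSO, 6.02 in NS rottlerin, the highest at TOX2, and 5.22 in SW rottlerin. Region 6 (chr20:42592987-42593321, 49.7 kb) had 5.26, 4.23, 5.01 and 4.87 in that order. Each of the 2 thus had regions without an NS DMSO peak on both sides. Region 8, whose sequence is printed above, had 5.40 in NS rottlerin and 3.66 in SW rottlerin and no peak in either DMSO list, and the other 4 regions ranged from 3.13 to 5.83.

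Where a region had a peak in NS DMSO and in another list, the fold enrichment could be set side by side, the NS DMSO value being shared by the 3 ratios and the total input by all lists. The median ratio to NS DMSO was 0.951 for SW DMSO (12 regions, 0.744 to 1.10, beside 0.980 over all merged regions), 1.11 for NS rottlerin (16 regions, 0.808 to 1.54, beside 1.04) and 1.06 for SW rottlerin (15 regions, 0.805 to 1.62, beside 1.06). After each list was scaled by its median over regions found in every list, these became 0.965, 1.07 and 0.981, beside 0.994, 0.991 and 0.980 over all merged regions. The SW rottlerin ratio thus turned from above 1 to below 1 with this scaling, and so did its counterpart over all regions.

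Regions with an NS DMSO peak had a median highest fold enrichment of 5.29 at the 6 genes and 4.61 over all merged regions. Those without had 3.86 and 3.79. The 11 regions in all 4 lists had 6.02, beside 5.21 over all regions with that pattern. The member regions had a median width of 402 bp, beside 294 bp, and a median GC content of 45.7%, beside 46.3%, ranging from 37.0% at TOX to 61.7% at PDCD1 in the median per gene.

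Consensus strings of factors active in T cells were counted on both strands in the central 300 bp of each region. The AP1 string was TGANTCA, bound by FOS and JUN dimers, and the NFAT string TGGAAA. The ETS family was searched with GGAAGT, the RUNX family with TGTGGT and the GATA family with AGATAA. EGR factors were searched with GTGGGCG, orphan nuclear receptors of the NR4A group with AAGGTCA and TCF and LEF factors with CTTTGAT. For bHLH factors such as E proteins, the E boxes CACCTG (bHLH 1) or else CAGCTG (bHLH 2) were taken, and NFκB was searched by its usual consensus. The NFAT and ETS strings share 4 letters but cannot use the same ones, and other strings can overlap at their ends. A match is a description of letters and shows no binding.

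The TCF string was present in 12 of the 47 regions (25.5%; 15.3 to 39.5%), beside 6.62% of all merged regions. TOX held 9 of the 12, in regions with and without an NS DMSO peak alike (4 of 8 and 5 of 8). The TOX regions were rich in A and T, and base composition moves with this count: among regions under 45% GC the string was present in 9 of 13 at TOX, beside 9.73% of all such regions. It was present in 0 of 6 and 0 of 4 such regions at HAVCR2 and TOX2. TCF7, whose product TCF-1 belongs to the family that binds this string, is a factor of stem-like T cells.

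The AP1 string was present in 7 of the 47 regions (14.9%, beside 17.9% of all), 4 at TOX and 3 at TOX2, and 6 of the 7 had no NS DMSO peak. Read the other way, 6 of the 28 regions without an NS DMSO peak held it (21.4%), beside 25.8% of all merged regions without one. At TOX2 the 3 regions were regions 2, 4 and 7, so 3 of the 4 TOX2 regions in every list but NS DMSO held it and none of the other 7 did. Over all merged regions it was in 36.7% of those in every list but NS DMSO, 9.69% of those in all 4 lists and 8.84% of those with an NS DMSO peak. The 2 HAVCR2 regions in every list but NS DMSO had no AP1 match in this window. The TOX2 matches, with the AP1 string in capitals and 12 bases on each side, are shown because they fall in regions found in every list but NS DMSO.
TOX2 region 2, chr20:42571453-42571483: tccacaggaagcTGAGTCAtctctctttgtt
TOX2 region 4, chr20:42584151-42584181: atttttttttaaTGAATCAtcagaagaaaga
TOX2 region 4, chr20:42584223-42584253: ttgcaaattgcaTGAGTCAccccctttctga
TOX2 region 7, chr20:42604113-42604143: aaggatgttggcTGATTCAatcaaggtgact
TOX2 region 7, chr20:42604127-42604157: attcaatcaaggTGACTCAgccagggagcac
Regions 4 and 7 each held 2 matches, and those of region 7 lay close enough for their printed stretches to overlap.

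The GATA string was in 15 of the 47 regions (31.9%, beside 21.0% of all), and the NFAT string also in 15 (31.9%, beside 27.9%). In the printed sequences, PDCD1 region 4 had 1 NFAT, 1 TCF and 2 bHLH matches, and LAG3 region 5 had 3 RUNX, 1 ETS and 1 GATA match. The ETS (27.7% beside 27.6%), NFκB (4.26% beside 4.33%) and EGR (6.38% beside 5.85%) strings had background shares inside the intervals of the 6 genes. RUNX was in 23.4%, beside 32.8%, and NR4A in 6.38%, beside 4.22%, with 0 of the 28 regions without an NS DMSO peak holding it, beside 5.15% of all such regions, a share at which a count of 0 in 28 carries no information.

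**Figure D5:**
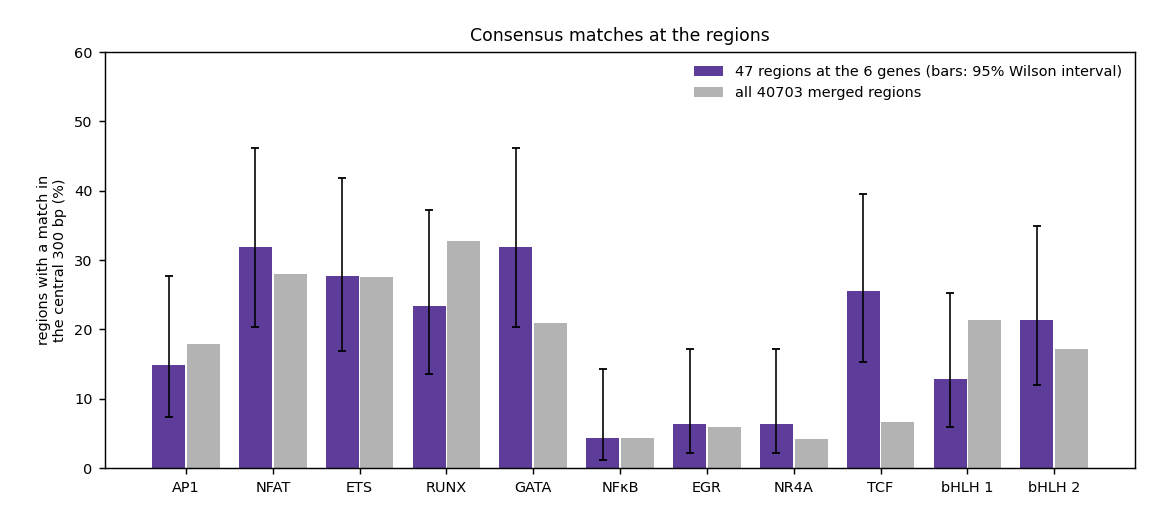
Share of regions (%, y axis) with a match to each consensus string (x axis; bHLH 1 is CACCTG and bHLH 2 is CAGCTG) in the central 300 bp, for the 47 regions at the 6 genes (purple, error bars 95% Wilson intervals) and all 40703 merged regions (grey). TCF stands at 25.5% beside 6.62%, and its interval is the one that does not span the grey bar.

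Other genes of the same pathways were searched by the same rule. The 10 ligand genes of these receptors had 28 regions, 12 of them (42.9%, beside 53.5% of all merged regions) without an NS DMSO peak. Of the 28, 9 (32.1%, beside 26.6% of all) were in all 4 lists and 0 (beside 7.08% of all) in every list but NS DMSO. At a share of 7.08%, a count of 0 in 28 carries little information. A further 13 receptor genes had 62 regions, 30 (48.4%) without an NS DMSO peak, 14 (22.6%, beside 26.6% of all) in all 4 lists and 7 (11.3%, beside 7.08%) in every list but NS DMSO, at 5 genes. One region of the 62 was also a HAVCR2 region. In the receptor genes with at least 7 regions, an NS DMSO peak was lacking at 6 of 12 for CD226, 3 of 8 for ENTPD1, 2 of 7 for CD96 and 3 of 7 for VSIR. Of the 10 ligand genes, 2 had a region with an edge within 1 kb of the TSS, CD274, which encodes PD-L1, and HMGB1. That of CD274 was in the 2 lists labelled SW, and that of HMGB1 was in all 4 lists.

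The 14 factors linked to T cell activation and exhaustion had 108 regions, of which 68 (63.0%, beside 53.5% of all merged regions) had no NS DMSO peak, 25 (23.1%, beside 26.6%) were in all 4 lists and 9 (8.33%, beside 7.08%) were in every list but NS DMSO, at 7 genes. The factor genes with at least 11 regions went both ways, lacking an NS DMSO peak at 11 of 12 regions for NFATC2, 9 of 11 for NFATC1, 10 of 15 for IKZF2, 6 of 12 for NR4A1, 5 of 13 for ID3 and 3 of 11 for TCF7. Counted by the nearest edge, 11 of the 14 had a region within 1 kb of the TSS, beside 44.9% of coding genes. By the same count 3 of the 6 checkpoint and TOX genes had one, HAVCR2, TOX and, with an edge inside that distance but its mid-point outside it, PDCD1. In the TOX family, TOX4 had 6 regions, 3 without an NS DMSO peak, and TOX3 had none in its window.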

How the data were processed

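Per the labels and the study's methods, the authors trimmed single-end reads (cutadapt), aligned them to hg19 (Bowtie2), dropped duplicate reads (Picard) and then called broad peaks over total input (MACS2); versions are not given in the sources used here. The deposited lists give each peak a score (10 times −log10 q without decimals), a fold enrichment (a ratio over total input) and −log10 p and q. A peak absent from a list fell under the authors' threshold there and may still carry signal, so presence depends on each library's depth, which is unknown, and on a total input shared by all lists.

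Peaks that overlapped or touched were merged, and regions were taken by gene body and 50 kb around the TSS from GENCODE release 44 lifted to GRCh37. Where a region held several peaks of a list, the highest fold enrichment was used. Python 3.11.15, numpy 2.4.6 and scipy 1.17.1 were used, and the merging and counting steps were tested on simulated data. Every region of a gene with up to 10 regions is named, apart from some at HAVCR2 that are not reported here; at TOX and TOX2 those within 1 kb of a TSS, in all 4 lists, in every list but NS DMSO, in NS DMSO alone or with the highest fold are named. TOX2 region 8 was named for its printed sequence, and the AP1 flanks, the share under 45% GC and the pathway genes named for their number of regions were added after the counts were seen. Each sample has 1 library, so shares are given beside all merged regions, with no test. Sequence comes from the GRCh37 genome. The genes, lists and strings were chosen with earlier results of these data known.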

Additional observations from a re-analysis of the deposited data

How the results depend on the processing

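The number of regions at the 6 genes was 47 and moved to 28 with gene bodies and 1 kb upstream alone and to 27 with the higher-scoring 50% of each list. It lay between 35 and 61 under the other settings (joining by overlap alone, 20 kb or 100 kb windows, every transcript's TSS, a q-value of 0.05 or less, equal numbers of peaks) and between 36 and 49 with 1 list left out, which was chosen after seeing the data. The share without an NS DMSO peak was 59.6% and ranged from 45.7% (equal numbers of peaks) to 63.2% (20 kb). Leaving out the list labelled SW rottlerin took the count from 28 to 17, and 11 of the 28 regions came from that list alone. Of 55 recomputed values, 53 were counted as unmoved, 22 of them motif shares in narrower or wider windows. The limits for this were broad. The share in all 4 lists was counted as unmoved at 37.0% with the higher-scoring 50% of each list, against 23.4% as reported. No paired analysis was possible because each list is 1 library. Depth is unknown from the lists, a missing peak is not an absence of open chromatin, and the labels of the lists differ from the study's methods, so no order of states is given.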
